A study of Papio anubis with 12 samples.

Results

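Frontal cortex libraries of small RNA from 12 fetal baboons (Papio anubis) were set against the reads of libraries outside these 12 that the same deposited table pools. The table gives normalised levels for each of the 12 cortex libraries, which are all the samples of the series, and a pooled read count for each microRNA (miRNA) that runs over more libraries than these. Whole reads were recovered in each cortex library, summed, and subtracted from the pooled count, and what remained is called the outside pool. The outside pool has no tissue label, no number of libraries and no replicates, so it is a single value for each miRNA. For that reason no test was made between cortex and the outside pool. The names the results turn on are given with their values in the 12 libraries, and ratios that rest on few reads with an exact 95% interval that covers counting error only.

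The 12 fetuses were taken on day 165 of gestation. In the 6 maternal nutrient restriction (MNR) fetuses the mother received 70% of the feed that control mothers ate per kilogram of body weight, and in the 6 control fetuses the mother fed freely. Each diet held 3 female and 3 male fetuses, and both diets used the same monkey feed. Names are those of human miRBase entries that the baboon reads matched, and the labels give no mother, housing or sequencing run.

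Of 1921 mature miRNA names in the table, 940 had reads. Reads of 731 names came from both sources, 176 names had reads only in the outside pool and 33 only in cortex. The comparison was made for the 538 names with at least 100 pooled reads. Counted once per name, the cortex libraries held 8919015 reads and the outside pool 64961211, which is 7.28 times as many. Single cortex libraries held 299716 to 1079367 reads (median 716798), the lowest in control replicate 6 and the highest in control replicate 3. Shares are given as reads per 1000000 reads counted once per name (ppm). A count of 0 over all 12 libraries allows a share of up to 0.336 ppm, which is 3 reads.

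A miRNA is cut from a hairpin precursor that releases a 5p and a 3p strand, and the strand that is kept guides Argonaute proteins to messenger RNAs that are then translated less or degraded. Many miRNAs are made mainly in particular tissues or cell lineages, so the miRNA content of a library carries a mark of its source. Brain is known for abundant miR-9, miR-124 and miR-128, liver for miR-122, epithelia for the miR-200 family, and placenta for the large primate cluster C19MC. miRNAs encoded within the HOX gene clusters are known to be made in the trunk and limbs and little in the forebrain.

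Names were put in classes by the ratio of their shares. A name was called enriched where its cortex share was at least 4 times its outside share, depleted where it had cortex reads and its cortex share was at most 0.25 times its outside share, absent where it had 0 cortex reads, and otherwise between. Of the 538 names, 196 were enriched (36.4%), 57 were depleted (10.6%) and 48 were absent (8.92%), while 237 lay between. No name with at least 100 pooled reads was without reads in the outside pool. All 12 cortex libraries lay above the outside share for 190 of the 196 enriched names, and all 12 lay below it for 55 of the 57 depleted names. The 6 exceptions among the enriched names were miR-191-3p, miR-33a-3p, miR-5096, miR-541-3p, miR-541-5p and miR-885-3p, and those among the depleted names were miR-216b and miR-372. Since the classes were set from the sum of these same 12 libraries, such agreement is largely built in and is no separate check. Of the 237 names between, 90 also lay above the outside share in all 12 libraries and 48 below it in all 12.

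The ratio of shares is affected by a few very abundant outside names. The median of all 538 names was 1.24 on the log2 scale, a cortex share 2.36 times the outside share, and 346 names (64.3%) lay above 0. When ratios were centred on that median, 107 names were enriched and 111 depleted, against 196 and 57 without centring. Without miR-10a-5p and miR-10b-5p in the total of reads, 127 were enriched and 92 depleted. A ratio between 1 and 2.36 therefore turns its direction under centring, and this holds below for miR-26a-5p, miR-22-3p, miR-23a-3p, miR-29a-3p, miR-181a-2-3p, miR-411-5p, miR-126-5p and miR-100-5p and for the medians of the miR-17-92, leukocyte and vessel lists.

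**Figure D1:**
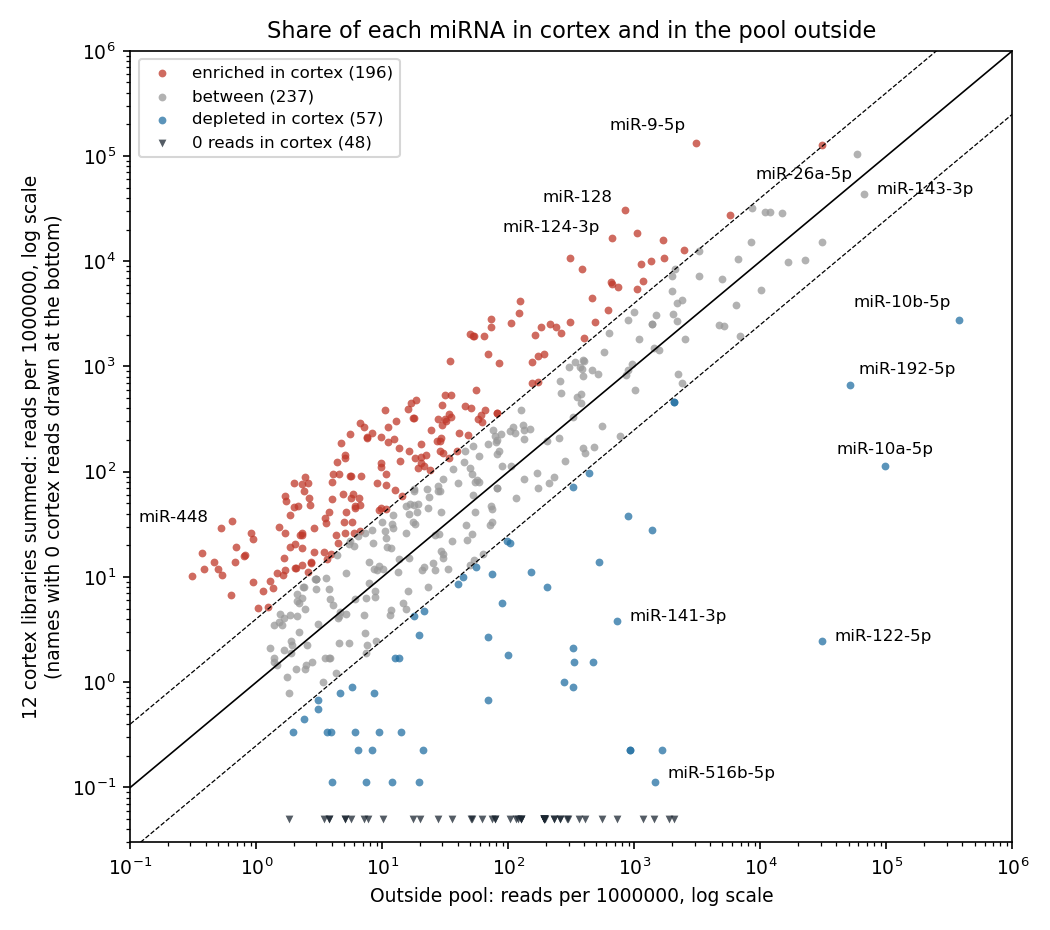
Share of each of the 538 compared names in the 12 cortex libraries summed (vertical axis) against its share in the outside pool (horizontal axis), both in reads per 1000000 on log scales. Colours give the class of a name, the solid line marks equal shares and the dashed lines a ratio of 4 in either direction. The 196 enriched names stay within 55.3 times the outside share, while the lowest depleted name, miR-516b-5p, is 12934-fold lower on a single cortex read, with an interval of 2321 to 510853.

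The 196 enriched names held 53.9% of cortex reads and 6.26% of outside reads. Part of both shares is miR-181a-5p, just past the limit, at 125950 ppm in cortex and 30898 ppm outside. The 237 names between held 45.6% of cortex reads and 35.3% of outside reads. The 57 depleted names held 0.489% of cortex reads and 57.2% of outside reads, and the 48 absent names held 1.30% of outside reads. The median enriched name had 10.05 times its outside share, and the median depleted name was 25.4-fold lower in cortex.

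By library, enriched names held 50.9 to 60.4% of reads in MNR libraries (median 56.9%) and 41.8 to 57.1% in control libraries (median 52.7%). The lowest of the 12 was control replicate 3, in which miR-26a-5p, a name between, held 26.1% of reads. Depleted names held 0.229 to 0.619% in MNR libraries (median 0.379%) and 0.318 to 1.48% in control libraries (median 0.511%). The highest of the 12 was control replicate 6, the shallowest library. Without miR-10a-5p and miR-10b-5p, depleted names held 0.154 to 0.323% in MNR libraries and 0.157 to 0.199% in control libraries, against 9.83% of outside reads.

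**Figure D2:**
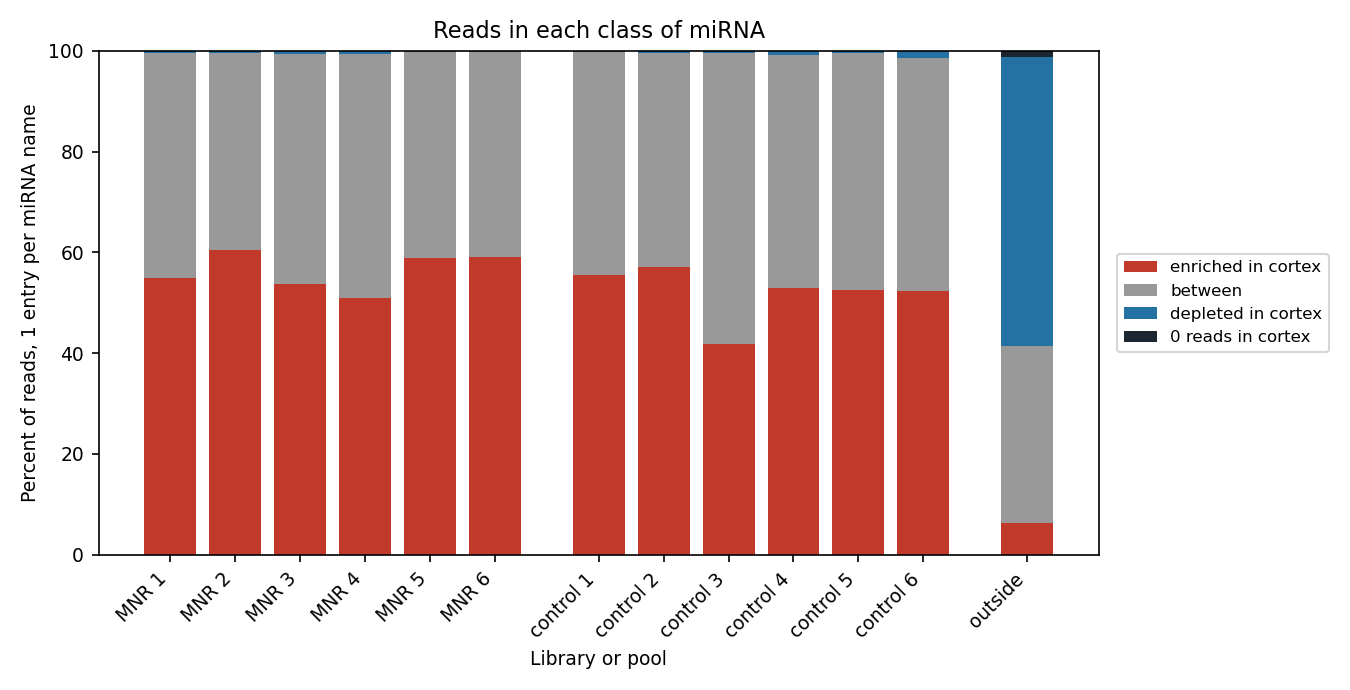
Percent of reads, counted once per name, that fell to enriched, between, depleted and absent names in each MNR library, each control library and the outside pool. Enriched names take 41.8 to 60.4% of every cortex library and 6.26% of the outside pool, and depleted names take at most 1.48% of a cortex library and 57.2% of the outside pool.

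Reads were spread over more names in cortex. The most abundant cortex name, miR-9-5p, took 13.4% of cortex reads, while the most abundant outside name, miR-10b-5p, took 37.5% of outside reads. The 10 most abundant names held 58.5% of cortex reads (54.1 to 65.1% in single libraries) and 78.1% of outside reads. It took 54 names to reach 90% of cortex reads and 28 to reach 90% of outside reads. The number of detected names did not stand apart in this way: 764 names had cortex reads, against 748 expected outside at the same number of reads, and at 299716 reads 487 were expected in cortex and 484 outside. The ranking of the 538 names was shared among cortex libraries, with Spearman's rho of 0.963 to 0.987 over 66 pairs of libraries, and less so with the outside pool, with rho of 0.484 to 0.516. These correlations are across names, which are not independent, and each library is compared with the same pool.

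The 10 most abundant cortex names were miR-9-5p, miR-181a-5p, miR-26a-5p, miR-143-3p, let-7a-5p, miR-128, miR-191-5p, let-7f-5p, miR-22-3p and miR-127-3p. Of these, miR-9-5p, miR-181a-5p, miR-128 and miR-127-3p were enriched and the other 6 lay between. miR-181a-5p, which is abundant in brain and in lymphocytes, had 106665 to 150480 ppm in MNR libraries (median 125007) and 83486 to 144820 ppm in control libraries (median 130925), against 30898 ppm outside, a ratio of 4.08. Leaving out single libraries gave log2 ratios of 1.999 to 2.09 for miR-181a-5p, on both sides of the limit. With median centring it was not enriched. miR-26a-5p had 54455 to 92896 ppm in MNR libraries (median 66235) and 67476 to 260599 ppm in control libraries (median 118482), against 58336 ppm outside. The summed ratio of miR-26a-5p was 1.78, and 10 of 12 libraries lay above the pool. miR-143-3p, a smooth muscle miRNA, was 1.54-fold lower in cortex, at 43413 ppm summed against 66721 ppm outside.

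The 10 most abundant outside names were miR-10b-5p, miR-10a-5p, miR-143-3p, miR-26a-5p, miR-192-5p, miR-181a-5p, miR-30a-5p, miR-122-5p, miR-148a-3p and miR-27b-3p, of which 3 are also among the cortex 10. miR-30a-5p had 15152 ppm in cortex and 30700 ppm outside, 2.03-fold lower. miR-148a-3p had 10378 ppm in cortex and 22429 ppm outside, 2.16-fold lower. miR-27b-3p had 9861 ppm in cortex and 16608 ppm outside, 1.68-fold lower. For these 3 names all 12 libraries lay below the pool.

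The neuron-enriched list set the cortex libraries apart. Of its 35 compared names, 34 were enriched (33 with median centring) and 1 lay between, and together they held 21.3% of cortex reads against 0.566% of outside reads. Most of that cortex share was miR-9-5p (133911 ppm), which is also on the astrocyte and neural progenitor list. The list's miR-138 and miR-219 strands are also on the oligodendrocyte list. The list's median ratio on the log2 scale was 4.92, beside 1.24 over all compared names. In bulk tissue, fewer cells of a type and less RNA per cell cannot be told apart, so a share says nothing on its own of how many neurons a library held.

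miR-9-5p, a regulator of neural progenitor proliferation and of neuronal differentiation, had 110621 to 156649 ppm in MNR libraries (median 140919) and 113117 to 155678 ppm in control libraries (median 128201), against 3085 ppm outside. The diets overlapped and each of the 12 libraries lay far above the pool, with a summed ratio of 43.4. The other strand of the hairpin, miR-9-3p, had 2018 ppm in cortex and 49.8 ppm outside, a ratio of 40.6.

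miR-128, a neuronal miRNA that restrains excitability, had 29466 to 40248 ppm in MNR libraries (median 35583) and 17015 to 38463 ppm in control libraries (median 27750), against 846 ppm outside, a ratio of 36.4. miR-124-3p, which represses non-neuronal transcripts in neurons, had 14441 to 19256 ppm in MNR libraries (median 15958) and 12693 to 21589 ppm in control libraries (median 17196), against 666 ppm outside, a ratio of 24.8. Every cortex library exceeded the pool for both names. miR-132-3p, which is induced by neuronal activity, had 1844 to 4433 ppm in MNR libraries (median 2490) and 1146 to 2871 ppm in control libraries (median 1815), against 72.2 ppm outside, a ratio of 32.7.

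miR-129-5p, a neuronal miRNA made from a pair of hairpins, had 2014 to 2674 ppm in MNR libraries (median 2392) and 1443.5 to 2015 ppm in control libraries (median 1597), against 52.7 ppm outside. miR-138-5p, which limits dendritic spine size in rat neurons, had 1823 to 2428 ppm in MNR libraries (median 2070) and 1622 to 2609 ppm in control libraries (median 1699), against 53.1 ppm outside. The ratios were 37.3 for miR-129-5p and 36.3 for miR-138-5p, and the diets overlapped in both while all 12 libraries stood above the pool.

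The 15 enriched names with the largest ratio among those of at least 100 ppm in cortex were picked by that ratio, which sets the lower end of their range. They were miR-9-5p, miR-9-3p, miR-129-1-3p, miR-129-2-3p, miR-129-5p, miR-132-3p, miR-132-5p, miR-153, miR-488-3p, miR-3200-3p, miR-128, miR-138-5p, miR-769-5p, miR-7-5p and miR-137, with ratios of 32.3 (miR-137) to 43.4 (miR-9-5p). All but miR-3200-3p are on the neuron-enriched list. miR-137, which acts in neuronal maturation, had 1118 ppm in cortex and 34.6 ppm outside, and miR-153, which lies in introns of PTPRN family genes, had 2831 ppm in cortex and 72.5 ppm outside. Outside reads were present for every one of them, from 4.73 ppm for miR-3200-3p to 3085 ppm for miR-9-5p.

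**Figure D3:**
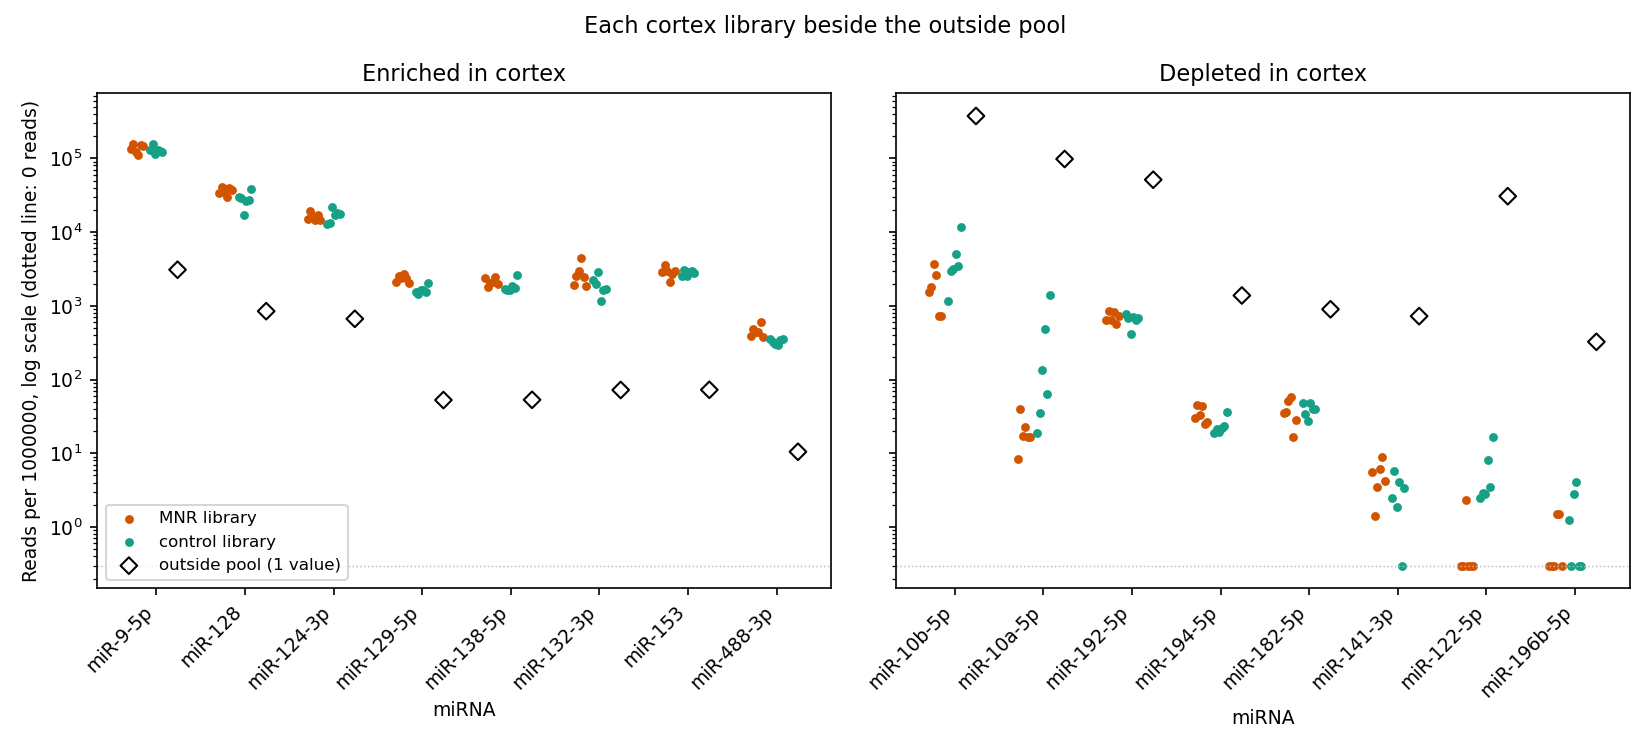
Share of 8 enriched and 8 depleted names in each MNR library, each control library and the outside pool, in reads per 1000000 on a log scale, with libraries at 0 reads drawn on the dotted line. In the left panel every library lies above the open diamond of the outside pool, and in the right panel every library lies below it, with control replicate 6 the highest cortex library for miR-10a-5p at 1405 ppm.

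The astrocyte and neural progenitor list had 15 of 23 names enriched (11 with median centring), 6 between and 2 depleted. It held 31.5% of cortex reads against 3.90% outside. Most of its cortex share was miR-9-5p (133911 ppm) and miR-181a-5p (125950 ppm). It shares both miR-9 strands with the neuron-enriched list. Its enriched names included miR-125b-5p, which had 15831 ppm in cortex and 1697 ppm outside, and miR-135a-5p at 433 ppm in cortex and 29.9 ppm outside. Its names between were miR-29 strands and miR-181a-2-3p, with miR-29a-3p at 454 ppm in cortex and 377 ppm outside. Both strands of miR-455, a miRNA of cartilage, were depleted, and miR-455-5p had 21.2 ppm in cortex and 103 ppm outside.

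The oligodendrocyte list had 6 of 8 names enriched and 2 between, of which miR-23a-3p had 544 ppm in cortex and 379 ppm outside. Most of the enriched names are also on the neuron-enriched list: miR-138-5p, miR-138-1-3p, miR-138-2-3p and miR-219-2-3p. Only the miR-338 strands are enriched names of the oligodendrocyte list alone. Its members that the neuron list does not hold include miR-338-3p, which promotes oligodendrocyte maturation in mice, at 537 ppm in cortex and 35.0 ppm outside, a ratio of 15.3. miR-219-2-3p had the second highest ratio of all, 52.0 with an interval of 37.6 to 73.7, from 19.3 to 115 ppm in MNR libraries (median 30.1) and 3.34 to 38.7 ppm in control libraries (median 13.6), against 0.647 ppm outside. The libraries of both diets differed widely from each other for this name, and all 12 were above the pool. Its companion miR-219-5p lay between, at 5.94 ppm in cortex and 2.11 ppm outside. The highest ratio belonged to miR-448, encoded in an intron of the serotonin receptor gene HTR2C, with 5.63 to 41.7 ppm in MNR libraries (median 31.7) and 24.2 to 37.1 ppm in control libraries (median 29.98), against 0.523 ppm outside. Its ratio was 55.3, with an interval of 38.6 to 81.5.

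The imprinted DLK1-DIO3 cluster, a long run of miRNA genes expressed from the maternal chromosome, had 37 of 64 names enriched, 25 between and 2 depleted. Together they held 5.08% of cortex reads and 1.22% of outside reads, and their median log2 ratio was 2.25. Of all compared names 36.4% were enriched. When ratios were centred on the median of all names, 13 of the 64 were enriched in place of 37. That share was near the one over all names, 107 of 538 with centring. miR-127-3p was then no longer enriched. The most abundant member, miR-127-3p, which is antisense to the RTL1 gene, had 27548 ppm in cortex and 5692 ppm outside, and libraries ran from 22326 to 36700 ppm. Ratios within the cluster were far from uniform. At the top stood miR-770-5p, at 77.3 ppm in cortex and 1.99 ppm outside (38.9 times, interval 32.2 to 47.3), and miR-1197, at 52.6 ppm in cortex and 1.71 ppm outside (30.8 times, interval 24.97 to 38.2). At the bottom stood both strands of miR-493, with miR-493-5p at 9.98 ppm in cortex and 43.7 ppm outside, 4.38-fold lower. miR-411-5p, the second most abundant outside, lay between at 3967 ppm in cortex and 2159 ppm outside.

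**Figure D4:**
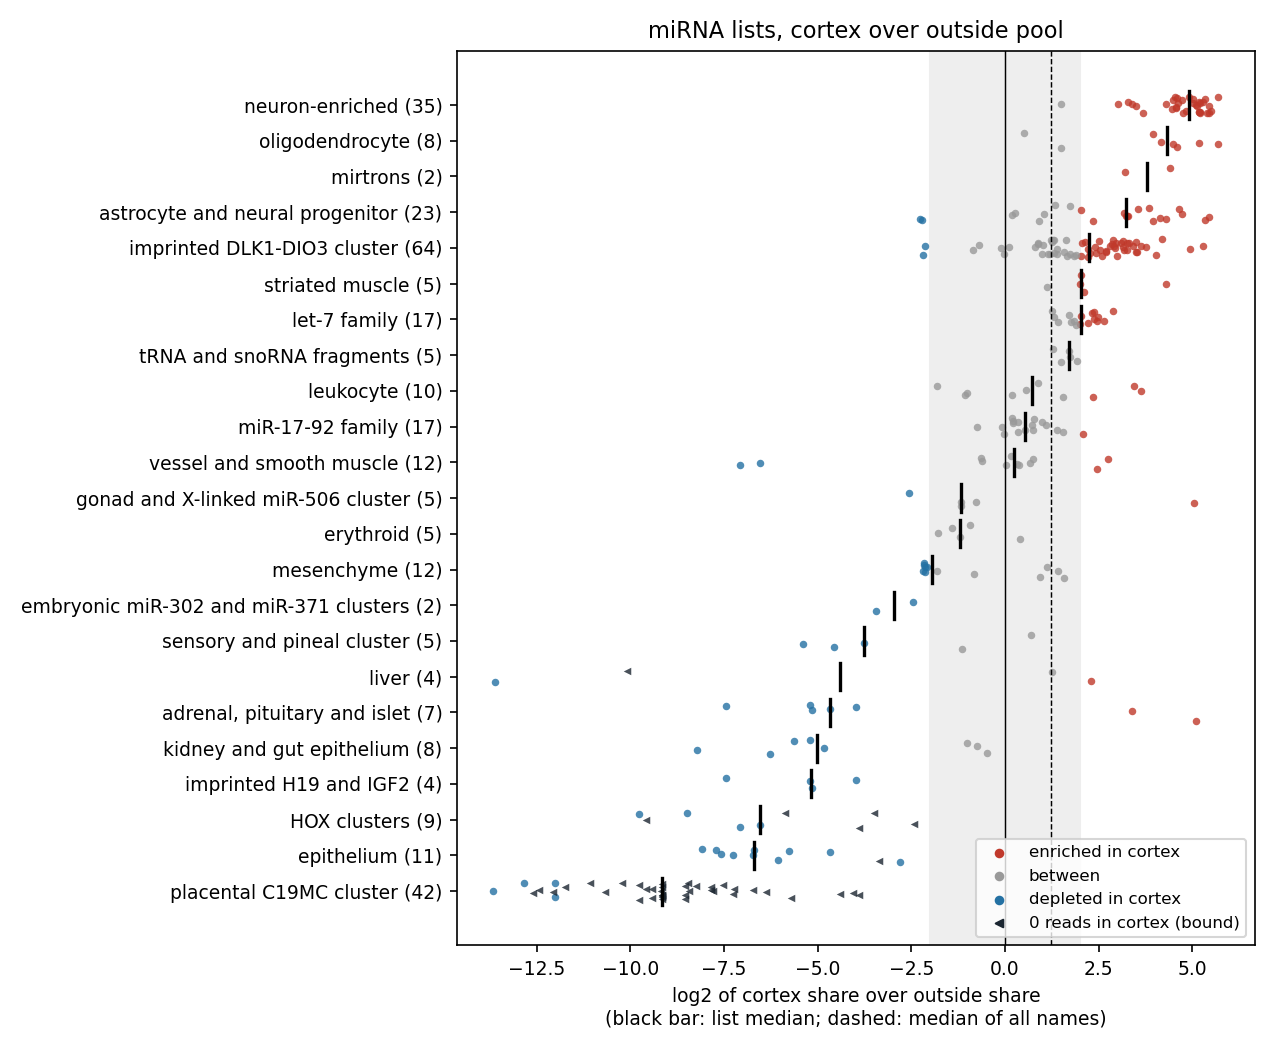
Log2 of cortex share over outside share (horizontal axis) for the compared names of each list (rows), with the number of names in parentheses. Points are coloured by class, triangles are upper bounds for names with 0 cortex reads, black bars are list medians, and the dashed line is the median of all 538 names at 1.24. The neuron-enriched list has its median at 4.92 and the C19MC list at -9.15.

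The HOX cluster miRNAs were at the other end. Of 9 compared names, 4 were depleted and 5 absent, and together they held 0.289% of cortex reads against 47.4% of outside reads. miR-10b-5p had 722 to 3687 ppm in MNR libraries (median 1658) and 1170 to 11824.5 ppm in control libraries (median 3330), against 375448 ppm outside. It was 135-fold lower in cortex. miR-10a-5p had 8.33 to 39.4 ppm in MNR libraries (median 17.0) and 18.7 to 1405 ppm in control libraries (median 99.4), against 97987 ppm outside, 874-fold lower, and 1459-fold lower without control replicate 6. The diets overlapped for both names, all 12 libraries lay below the pool, and control replicate 6 was the highest for each.

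The other HOX cluster names were at or near the floor. miR-196b-5p had 8 reads over all cortex libraries, 0.897 ppm against 325 ppm outside, 362-fold lower with an interval of 184 to 839. miR-196a-5p, for which the outside share was 258 ppm, had 0 cortex reads and was at least 768-fold lower. miR-10a-3p, miR-196a-3p, miR-196b-3p and miR-615-3p were also absent. Because miR-10a-5p and miR-10b-5p differ little in sequence, some of their reads may not be told apart.

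Liver miR-122 and most names of the epithelial lists were also depleted or absent. miR-122-5p, which makes up most liver miRNA and promotes cholesterol synthesis, had 22 reads over the cortex libraries, 2.47 ppm against 30661 ppm outside, 12430-fold lower with an interval of 8210 to 19834. Of the MNR libraries, 1 had 2 reads and the other 5 had 0, while the control libraries had 2 to 5 reads each. miR-122-3p had 0 cortex reads and 363 ppm outside, at least 1081-fold lower. The other liver name, miR-885, lay above the pool, with miR-885-5p at 65.9 ppm in cortex and 27.6 ppm outside. Its other strand, miR-885-3p, was enriched, at 5.05 ppm in cortex and 1.03 ppm outside. The liver list of 4 names thus had 1 enriched (0 with median centring), 1 between, 1 depleted and 1 absent.

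Of the kidney and gut epithelium list, 5 of 8 names were depleted and 3 lay between. miR-192-5p, a miRNA of gut, liver and kidney, had 568 to 854 ppm in MNR libraries (median 686) and 419 to 763 ppm in control libraries (median 683), against 51303 ppm outside, 76.7-fold lower. miR-194-5p, its cluster partner, had 25.3 to 45.01 ppm in MNR libraries (median 31.9) and 18.7 to 36.7 ppm in control libraries (median 21.8), against 1381 ppm outside, 49.7-fold lower. The diets overlapped in both names and all libraries were below the pool. miR-192-5p stayed well above the floor in each cortex library, unlike miR-215, which carries the same seed and had 14 cortex reads, 1.57 ppm, and 473 ppm outside, 301-fold lower with an interval of 179.5 to 551. The names between were miR-204-5p and both strands of miR-30a.

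The epithelium list had 10 of 11 names depleted and 1 absent, and its sum was 29.8 ppm in cortex against 2122 ppm outside. miR-141-3p, a member of the miR-200 family that holds the epithelial state by repressing ZEB factors, had 1.41 to 8.93 ppm in MNR libraries (median 4.88) and 0 to 5.81 ppm in control libraries (median 2.92), against 724 ppm outside. It was 190-fold lower with an interval of 136 to 274. Others of the family lay 153-fold (miR-200b-3p, 19 reads, interval 98.2 to 255), 210-fold (miR-429, 14 reads, interval 125 to 383) and 273-fold (miR-200a-3p, 9 reads, interval 144 to 597) lower. Without control replicate 1 these were 295-fold (miR-200b-3p), 334-fold (miR-429) and 559-fold (miR-200a-3p). miR-375, a miRNA of islet and pituitary cells, had 7.96 ppm in cortex and 202 ppm outside.

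Sensory, adrenal and islet lists were mixed. miR-182-5p had 16.4 to 58.8 ppm in MNR libraries (median 35.6) and 27.8 to 48.7 ppm in control libraries (median 39.7), against 897 ppm outside, 23.6-fold lower, and its cluster partner miR-183-5p was 13.6-fold lower. Of the 5 sensory names, 3 were depleted and 2 lay between. In the adrenal, pituitary and islet list 2 of 7 names were enriched and 5 depleted. The enriched names were both strands of miR-7, which is also on the neuron list, with miR-7-5p at 990 to 7377 ppm in MNR libraries (median 4206) and 3015 to 7054 ppm in control libraries (median 3842), against 124 ppm outside. The 4 names of the imprinted H19 and IGF2 genes were all depleted, with miR-483-3p, from an IGF2 intron, at 14.02 ppm in cortex and 521 ppm outside, and miR-483-5p at 5.61 ppm in cortex and 88.8 ppm outside.

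The primate C19MC cluster, expressed almost only in placenta, was nearly missing from cortex. Of 42 compared names, 38 were absent and 4 depleted, and all 42 together had 7 reads in cortex against 1119325 outside, 1.72% of outside reads. The 7 reads lay in 4 libraries and in miR-516b-5p (1 read, in control replicate 5), miR-524-3p (2 reads) and miR-517a-3p with miR-517b-3p (2 reads each, which are identical in every library). Single reads decide these ratios. miR-516b-5p was 12934-fold lower with an interval of 2321 to 510853, and has 0 reads without control replicate 5. miR-524-3p was 7318-fold lower with an interval of 2026 to 60429, and 13320-fold without control replicate 1 or 13827-fold without control replicate 4, and miR-517a-3p was 4146-fold lower with an interval of 1148 to 34232, and 7545-fold without control replicate 1 or 7481-fold without MNR replicate 3. miR-516a-5p, with 135064 outside reads or 2079 ppm, had 0 cortex reads and was at least 6181-fold lower. miR-517c-3p was at least 5561-fold and miR-1323 at least 4269-fold lower. Of the 10 absent names with most reads outside, all but miR-122-3p belong to this cluster: miR-516a-5p, miR-517c-3p, miR-1323, miR-518c-3p, miR-520d-5p, miR-525-5p, miR-520a-3p, miR-518b and miR-526b-5p. Its names are close to each other in sequence, and several have the same count in every library, so they are not separate measurements. The totals of the 42 names, in cortex and outside, can therefore count the same reads more than once. Among all compared names, 22 fell into 8 groups with identical values.

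Outside the C19MC list 10 names were absent. They were miR-122-3p, the HOX cluster names miR-196a-5p, miR-196a-3p, miR-196b-3p, miR-10a-3p and miR-615-3p, the epithelial miR-200b-5p, and miR-1295b-5p, miR-934 and miR-517-5p, of which the last carries a C19MC number but was not on the list. The miR-302 and miR-371 clusters, which mark pluripotent cells, had only 2 names past the read minimum, and both were depleted, with miR-373-3p at 7 cortex reads and 8.56 ppm outside. It was 10.9-fold lower with an interval of 5.26 to 27.3, and 34.4-fold lower without MNR replicate 3. miR-372, with 5 cortex reads, was 5.49-fold lower with an interval of 2.31 to 17.1, and 12.4-fold lower without that library.

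Without centring, lists of other cell types that cortex tissue holds lay nearer the pool. Relative to the median of all names, their log2 medians were -2.43 (erythroid), -0.99 (vessel and smooth muscle), -3.19 (mesenchyme) and -0.52 (leukocyte). The erythroid list had all 5 names between (4 of them depleted with median centring) and 0.613% of cortex reads against 1.29% outside. miR-451a, an erythrocyte miRNA made without Dicer, had 662 to 1184 ppm in MNR libraries (median 931) and 264 to 623 ppm in control libraries (median 396), against 2399 ppm outside. The MNR and control libraries did not overlap, and all 12 were below the pool. miR-486-5p had 5322 ppm in cortex and 10191 ppm outside.

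Vessel and smooth muscle miRNAs had 2 of 12 names enriched, 8 between and 2 depleted, and both depleted names were miR-10b strands. With median centring 0 of the 12 were enriched. miR-126-5p, of endothelium, had 10560 ppm in cortex and 6661 ppm outside, and both its strands and those of miR-145 lay between. In the mesenchyme list 6 of 12 names were depleted and 6 between (8 depleted with median centring). Without centring the depleted ones lay just past the limit, at 4.22-fold (miR-214-5p) to 4.54-fold (miR-21-3p) lower. Of these, miR-199a-3p and miR-199b-3p have the same count in every library, so they are not separate measurements. miR-21-5p had 1943 ppm in cortex and 6835 ppm outside. Leukocyte miRNAs had 3 of 10 names enriched and 7 between (2 enriched and 3 depleted with median centring). miR-342-3p, the most abundant, had 2005 ppm in cortex and 162 ppm outside, while miR-142-5p had 219 ppm in cortex and 768 ppm outside.

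Striated muscle miRNAs stood on the enriched side, with 4 of 5 names enriched at low levels, of which only miR-208b stayed enriched with median centring. miR-1, at 134 ppm in cortex and 33.6 ppm outside, was just past the limit with a ratio of 4.002, and miR-133a, at 104 ppm in cortex and 23.95 ppm outside, had 4.33. Of the gonad and X-linked list, miR-892a was enriched at 10.2 ppm in cortex and 0.308 ppm outside (33.1 times, interval 20.3 to 56.8), 3 of 5 names lay between and miR-514a-3p was depleted, 5.92-fold lower on 7 reads with an interval of 2.84 to 14.9, and 9.58-fold lower without MNR replicate 5. miR-510, of the same list, lay between at 1.68 ppm in cortex and 3.82 ppm outside. The 5 entries that stem from transfer RNA or small nucleolar RNA fragments all lay between, with miR-664-3p at 247 ppm in cortex and 75.5 ppm outside and miR-1260a at 199 ppm in cortex and 81.5 ppm outside. Both mirtrons, miRNAs whose hairpin is a whole short intron, were enriched (1 of them, miR-1224-5p, with median centring), with miR-1224-5p at 39.0 ppm in cortex and 1.85 ppm outside and miR-877-5p at 32.6 ppm in cortex and 3.56 ppm outside.

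Close members of a family differed in how far they were set apart; the families below were chosen after their values were seen. Among 4 miR-181 guide strands the ratio was 4.08 for miR-181a-5p, 9.10 for miR-181b-5p, 17.6 for miR-181c-5p and 26.5 for miR-181d. miR-92b-3p had a ratio of 22.03, while miR-92a-3p, which has the same seed, was at 0.596. For the miR-17-92 family as listed, 1 of 17 names was enriched and 16 lay between, with a median log2 ratio of 0.55. Its second most abundant member outside, miR-25-3p, had 822 ppm in cortex and 864 ppm outside.

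The let-7 family, which drives cells toward differentiation, had 10 of 17 names enriched and 7 between, and held 10.6% of cortex reads against 2.80% outside. With median centring, 0 of the 17 were enriched. Its guide strands ranged from 2.65 for let-7f-5p to 7.35 for let-7c. miR-125b-5p had a ratio of 9.33 and miR-125a-5p of 3.80, and miR-99a-5p had 5.50 while miR-100-5p had 1.25. miR-148b-3p had a ratio of 3.32 and miR-148a-3p, one of the 10 most abundant outside names, of 0.463. miR-195-5p and miR-497-5p had ratios of 7.16 and 9.21, and miR-424-5p, of the same family, of 0.372. Ratios between close sequences may be affected where reads matched more than 1 name.

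The names nearest each limit show how the classes depend on it. Just inside the enriched class were miR-1 (4.002), let-7a-3p (4.01) and miR-541-5p (4.07), and just outside it miR-4286 (3.999), miR-146b-5p (3.995) and miR-582-5p (3.86). Just inside the depleted class were miR-214-5p (4.22-fold lower), miR-493-5p (4.38) and miR-424-3p (4.40), and just outside it miR-1262 (3.90), miR-378i (3.79) and miR-542-3p (3.77). Of the 33 names with reads in cortex alone, the 5 with most were miR-2682-5p with 9 reads in 7 libraries, miR-5004-5p with 7, miR-4671-5p with 5, miR-3620 with 4 and miR-3115 with 2.

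The balance of a hairpin's strands was compared as well. It is made from the same reads as the shares, so it is not independent of the classes. For 209 hairpins with at least 100 reads of both arms in each source, the 5p share of both arms differed by a median of 0.484 percentage points between cortex and outside. It was within 5 points for 183 hairpins and over 10 points apart for 14, of which 10 had all 12 libraries on the same side of the pool. The more abundant arm differed in 3 hairpins, mir-431, mir-377 and mir-1185-1, all in the DLK1-DIO3 region.

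mir-431 had the largest difference. Its 5p arm took 12.3 to 17.7% in MNR libraries (median 15.3%) and 12.6 to 26.7% in control libraries (median 15.5%), against 83.7% outside. Summed, 159 of its cortex reads were of the 5p arm and 820 of the 3p arm, while outside 1889 were 5p and 367 were 3p. All 12 libraries lay below the pool and the diets overlapped. In shares, miR-431-3p was enriched 16.3 times while miR-431-5p had a ratio of 0.613. The 5p arm of mir-377 took 60.0 to 81.0% in MNR libraries (median 69.5%) and 48.3 to 75.8% in control libraries (median 59.3%), against 39.8% outside. For mir-1185-1, whose 5p arm is listed in several entries, it took 66.7% in cortex and 36.0% outside.

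The other 7 hairpins among the 10 with the largest difference kept the same major arm. The 5p share of mir-339 was 4.33 to 8.27% in MNR libraries (median 6.67%) and 2.81 to 9.68% in control libraries (median 5.02%), against 30.7% outside. It was 46.9% in cortex and 16.9% outside for mir-548h-3, and 18.7% in cortex and 4.91% outside for mir-29b-2, both with an arm in several entries. It was 11.96% in cortex and 27.4% outside for mir-541, 28.6% in cortex and 14.6% outside for mir-483, 69.5% in cortex and 55.9% outside for mir-106b, and 75.2% in cortex and 88.1% outside for mir-154. The libraries of mir-483 ran from 8.33 to 57.1%, on both sides of the pool. Of 127 single-copy hairpins with both arms among the compared names, 38 had both enriched, 54 both between, 21 both depleted or absent, 11 an enriched and a between arm, and 3 a depleted and a between arm, while 0 had an enriched and a depleted arm.

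**Figure D5:**
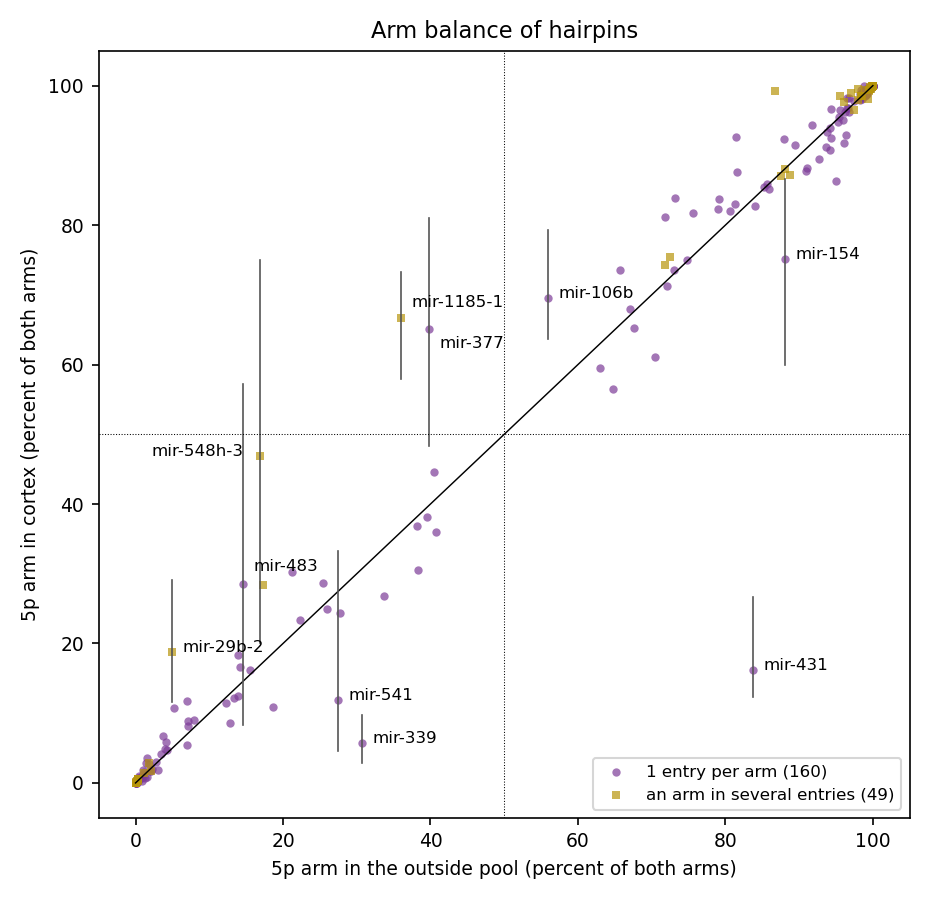
Percent of the reads of both arms that were of the 5p arm in the 12 cortex libraries summed (vertical axis) against the outside pool (horizontal axis) for 209 hairpins. Vertical lines give the range of the 12 libraries for the 10 hairpins with the largest difference, and the diagonal marks equal balance. Most hairpins lie on the diagonal, and mir-431 lies at 16.2% in cortex and 83.7% outside.

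Maternal diet was tested within the cortex libraries, where there are replicates, and the calls were then counted by class. The level used is reads per 1000000 over all entries of the table (RPM) as deposited, on the log2(RPM + 1) scale. With limma's trend model and Benjamini-Hochberg adjustment over 481 names, 12 names (2.49%) were higher and 1 (0.208%) lower in MNR, 2.7% in all. Among 196 tested enriched names 6 were higher and 0 lower, which is 3.06%. Among 225 tested names between, 6 were higher and 0 lower, and among 26 tested depleted names 0 were higher and 1 was lower. At an unadjusted p under 0.05, 93 of all 481 names were higher (19.3%) and 12 lower (2.49%). Of enriched names 44 were higher (22.4%) and 3 lower, of names between 44 were higher (19.6%) and 6 lower, and of depleted names 4 were higher and 3 lower. The share of enriched names was near that of all names.

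The enriched names higher in MNR were let-7i-5p, miR-129-5p, miR-134, miR-185-5p, miR-377-5p and miR-877-5p. let-7i-5p had a mean of 8026 ± 1942 RPM in MNR libraries and 4842 ± 1094 RPM in control libraries (SD, n = 6 each), a log2 difference of 0.73 (SE 0.17, limma adjusted p = 0.0440). miR-129-5p had a mean of 1371 ± 169 RPM in MNR libraries and 951 ± 120 RPM in control libraries, a log2 difference of 0.53 (SE 0.12, limma adjusted p = 0.0440). miR-134, a DLK1-DIO3 member that limits dendritic spines in rat neurons, had a mean of 167 ± 26.1 RPM in MNR libraries and 96.2 ± 27.97 RPM in control libraries, a log2 difference of 0.83 (SE 0.19, limma adjusted p = 0.0440). For miR-134 and miR-377-5p the lowest MNR library lay above the highest control library in ppm, and for the other 4 names the diets overlapped.

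Among names between, miR-451a had a log2 difference of 1.202 (SE 0.21, limma adjusted p = 0.00922), with a mean of 547 ± 113 RPM in MNR libraries and 244 ± 81.5 RPM in control libraries. The others were let-7d-5p, miR-125a-5p, miR-1307-5p, miR-154-5p and miR-5585-3p, with log2 differences of 0.54 to 1.87. The depleted name lower in MNR was miR-122-5p, with a log2 difference of -1.73 (SE 0.41, limma adjusted p = 0.0440), at 0.228 ± 0.559 RPM in MNR libraries and 3.54 ± 3.29 RPM in control libraries. That call rests on 2 reads in MNR libraries and 20 reads in control libraries. miR-10a-5p (-2.68, limma adjusted p = 0.0616) and miR-10b-5p (-1.22, limma adjusted p = 0.143) did not pass with limma. The count models called miR-10a-5p lower in MNR, edgeR with a log2 difference of -4.23 (adjusted p = 0.0384) and DESeq2 with -4.34 (adjusted p = 0.000268), and over all settings its adjusted p ran from 0.000268 to 0.125. miR-122-5p was not called by edgeR (log2 difference of -3.10, adjusted p = 0.101) and had no adjusted p in DESeq2, and over the other settings its adjusted p ran from 0.0284 to 0.104.

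The median log2 difference between diets was 0.25 over enriched names, 0.24 over names between and 0.16 over depleted names, beside 0.23 over all 481. With median-ratio scaling the median of all names was 0.03, 1 name was higher (miR-451a) and 2 were lower (miR-122-5p and the enriched miR-421), and no enriched name was higher. The number of calls depended on single libraries. Without control replicate 1 there were 26 calls, without control replicate 6 there were 18 and without MNR replicate 2 there were 19. Without any of control replicates 2, 3 or 5 or MNR replicates 1, 4, 5 or 6 there was 1, and without control replicate 4 or MNR replicate 3 there were 2.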

How the data were processed

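Total RNA was taken with a Qiagen miRNeasy column and made into libraries with Illumina's small RNA kit (v1.5), per the labels' protocols. The authors deposited a table of 2234 entries, each a mature miRNA with a precursor. Per the file headers and values it holds RPM per library, a pooled read count, group summaries, and p-values of the authors' diet comparisons; the summaries and p-values were not used here. The submitters' processing notes name hg18 without a role; how reads were aligned and counted is not given in the sources used here. Of RPM values above 0, 100% were whole reads to a tolerance of 0.0051 RPM. No entry had fewer pooled than cortex reads, and 34 entries with cortex reads had 0 left over. Of 1921 names, 202 had more than 1 entry; the entry of highest pooled count was kept, since repeats made up 38.5 to 44.3% of summed reads. Intervals and floors cover counting error only, since reads carry no molecular identifiers.

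Names with at least 100 pooled reads were compared, with a ratio of 4 as limit. Ratios of summed reads have exact 95% intervals. Hairpins needed 100 reads of both arms in each source. Diet was fitted with limma 3.58.1 (R 4.3.3, trend) on log2(RPM + 1) for names of mean 1 RPM or more, with adjusted p under 0.05 as threshold; fold changes of low names are understated. edgeR 4.0.16 and DESeq2 1.42.0 on recovered reads were alternatives. The classes and the limma fit were tried on simulated reads with planted changes. Those changes were larger than the class limit and than any diet difference limma called here. The class simulation also took out the known shift of the totals, which is not known for the real reads. These trials therefore do not vouch for names near the limit or for the diet calls. The labels name no mothers, so p-values measure only the spread between these samples. Replicate numbers follow record order and pair nothing. Python 3.11.15, pandas 2.3.3, scipy 1.17.1 and matplotlib 3.10.9 were used.

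Members and lists were chosen with earlier results of these data known. Named are the 10 most abundant names in each source, the 15 with the largest ratio and the 15 with the smallest among those of at least 100 ppm, the 10 absent names with most outside reads, the 5 cortex-only names with most reads, the 3 names on each side of a limit, the 2 most abundant of each list, the 10 hairpins with the largest difference and each diet call; others were chosen after their values were seen. No miRNA sequence and no genome coordinate was used here.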

Additional observations from a re-analysis of the deposited data

Results flagged for a closer look

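Among the 6 libraries of a diet, a library was singled out where its gap to the nearest other, over the whole range, exceeded the 95% critical value of Dixon's test. Of 218 groups (109 names in each diet), 34 were singled out. In 7 of these only 1 library had any reads, so the library had to be singled out, and miR-517a-3p and miR-517b-3p count the same reads under 2 names. Chance picks about 1 in 20 groups of continuous values, a rate that does not hold for counts this low, so the total is not set against it.

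Control replicate 6, the shallowest library, was high for miR-10a-5p (1405 ppm), miR-10b-5p (11824.5 ppm), miR-129-5p (2015 ppm), miR-137 (1838 ppm), miR-138-5p (2609 ppm), miR-194-5p (36.7 ppm), miR-342-3p (3120 ppm), miR-4286 (60.1 ppm) and let-7a-3p (190.2 ppm). Control replicate 1 was high for miR-7-5p (7054 ppm), let-7d-5p (1081 ppm), miR-200a-3p (6.24 ppm), miR-200b-3p (12.5 ppm), and miR-517a-3p and miR-517b-3p (1.25 ppm, 1 read shared by both names). Control replicate 3 was high for miR-26a-5p (260599 ppm) and miR-372 (0.926 ppm, 1 read), and low for miR-192-5p (419 ppm) and miR-1260a (80.6 ppm). Control replicate 4 was high for miR-183-5p (22.3 ppm) and low for miR-132-5p (87.2 ppm), and control replicate 5 was high for miR-516b-5p (1.16 ppm, 1 read).

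MNR replicate 1 was low for let-7a-3p (141.6 ppm) and high for miR-200b-3p (4.16 ppm). MNR replicate 2 was high for let-7a-5p (44780 ppm), let-7i-5p (21495 ppm), miR-183-5p (29.5 ppm) and miR-215 (2.81 ppm). MNR replicate 3 was high for miR-122-5p (2.29 ppm), miR-373-3p (5.74 ppm), and miR-517a-3p and miR-517b-3p (1.15 ppm, 1 read shared by both names). MNR replicate 4 was high for miR-146b-5p (17200 ppm), and MNR replicate 5 for miR-514a-3p (4.46 ppm). The source of these values was not tested.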

How the results depend on the processing

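With a ratio limit of 8, 122 names were enriched and 37 depleted, and with a limit of 2, 100 were depleted. With no minimum of reads 298 names were enriched and 176 absent, and with a minimum of 1000 pooled reads 119 were enriched. Median centring gave 107 enriched and 111 depleted, and a total without miR-10a-5p and miR-10b-5p, which was chosen after seeing the data, gave 127 and 92. The 33 names with reads in cortex alone numbered 19 when names with identical values were counted once and 18 when MNR libraries alone were used. The names dropped for identical values each had 1 read, in the same library as another name. They include unrelated names such as miR-302c-3p and miR-572, so equal values do not make them the same reads. With at least 1000 reads of both arms, 1 hairpin (mir-377) had another major arm and 4 were over 10 points apart. mir-431 and mir-1185-1 fell short of that minimum in cortex. The 10 most abundant outside names held 71.3% of reads over all entries. Leaving out single libraries gave 192 to 199 enriched, 55 to 59 depleted, 48 to 49 absent and 27 to 33 cortex-only names, 13 to 15 hairpins over 10 points apart, 3 with another major arm, mir-431 differences of -68.0 to -67.1 points, and 57.7 to 58.9% of cortex reads in the 10 most abundant names. Of the ratios of named miRNAs under alternatives, 1401 moved by less than the spread between libraries and 235 by more. None past the limit changed direction, but centring moves a log2 ratio by only 1.24 and could not reverse one. Names near the limit, such as miR-1, miR-127-3p and miR-181a-5p, did leave the enriched class with centring.

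The diet calls were less steady. Of 12 higher and 1 lower, pseudocount 5 and no filter on low values each left 1 higher and 0 lower, and a mean of 10 RPM gave 0 lower. That last filter drops the lower name, miR-122-5p (mean 1.88 RPM), before any test. Median-ratio scaling and edgeR each gave 1 higher and 2 lower, and DESeq2 gave 4 higher and 5 lower. Enriched names, 6 higher and 0 lower as reported, were 0 higher with pseudocount 5 or no filter, 0 higher and 1 lower with median-ratio scaling or edgeR, and 2 higher and 2 lower with DESeq2. Among depleted names 0 were lower with pseudocount 5 and no filter, and also with a mean of 10 RPM, where miR-122-5p was not tested. With edgeR and DESeq2 the count stayed at 1, but the name was miR-10a-5p and not miR-122-5p. Leaving out single libraries gave 1 to 22 higher, 0 to 4 lower, 0 to 10 enriched names higher, 0 lower, and 0 to 3 depleted names lower. The cause was not tested. Of single calls, 79 kept their side of the threshold and 162 did not, leaving out 4 names for which DESeq2 gave no adjusted p. No paired analysis was possible because the replicate numbers follow record order and tie no fetuses together. A count of 0 limits absent names to 0.336 ppm over 12 libraries, and to 3.34 ppm per read in control replicate 6.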

Other observations

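No enriched name exceeded 55.3 times its outside share, while depleted names reached 12934-fold lower. Of the 196 enriched names, 28 had at least 30 times the outside share, 18 of them on the neuron-enriched list. These 28 ran from 30.1 to 55.3 times, and the lower end is set by the limit of 30. As reads, which restate the same ratios, the cortex libraries held 4.13 to 7.59 times as many as the outside pool for these 28 names. Of the 57 depleted names, 25 were at least 30-fold lower. The lowest was miR-516b-5p at 12934-fold, on 1 read with an interval of 2321 to 510853, followed by miR-122-5p at 12430-fold, on 22 reads with an interval of 8210 to 19834. What the outside pool holds of these 28 names was not tested.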
